A study of Homo sapiens with 3 samples.

Results

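Total RNA of a cisplatin-resistant subline of MHCC97Low was compared with total RNA of the MHCC97Low line it was derived from, by 1 array per line. MHCC97Low is an established human cell line from a metastatic hepatocellular carcinoma, the cancer of the liver's parenchymal cells. The groups were the parental line (97Low) and the cisplatin-resistant subline (MHCC97L/CisR). A doxorubicin-resistant subline of the same parent (MHCC97L/DoxR), which is the other array of the series, is given beside them. All lines were grown in DMEM with serum and carried the label of no treatment, so the arrays compare standing lines and not a response to drug. The labels give no selection dose or time, and do not say whether the subline is a clone or a pool. The study sought genes that differ between the parent and each resistant subline. Of 19775 genes that the Affymetrix U133 Plus 2.0 array covers under 1 gene symbol, 12710 were above a floor of 76.9 signal units on the parental or the cisplatin-resistant array, and these were compared.

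Cisplatin enters cells through copper transporters, volume-regulated anion channels and other routes, binds thiols such as glutathione and metallothioneins on the way, and forms adducts and crosslinks on DNA that are removed by nucleotide excision repair and crosslink repair. Liver cells are known for a secretory programme of albumin, transferrin, fibrinogen, apolipoproteins and protease inhibitors, which is driven by factors such as the C/EBP family and is partly kept in hepatocellular carcinoma lines. Interferon-stimulated genes carry a sequence in their promoters, the interferon-stimulated response element, to which the STAT and IRF factors bind.

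Signals are linear MAS5 units, and the floor is the pooled median of the 3 arrays, to which dimmer values were raised. A gene was called higher or lower when its floored signal differed at least 2-fold between the arrays, while "76.9 or less" stands for a signal at or under the floor and "at least" before a fold marks a bound from such a signal. There were no replicates, so a difference could not be set against a spread between cultures, and no test was made. In the cisplatin-resistant array 360 genes were higher (2.83%) and 328 lower (2.58%), together 5.41%, and the median log2 difference of all compared genes was 0.02. These shares and this median are the background for each group of genes described here. The share called was 9.56% in the dimmest of 3 equal groups of genes (signals up to 363), 4.56% in the middle group and 2.12% in the brightest (from 1392), so a call in a dim gene carries less weight. Degradation controls were alike on the arrays, where the 3' to 5' signal ratio of ACTB was 1.49 for the parental and 1.51 for the cisplatin-resistant one, and Pearson's r of log2 signal was 0.971 over 25654 probe sets above the floor on both arrays. Differences of 4-fold or more were found for 27 higher and 27 lower genes, and of 8-fold or more for 5 and 5. Where 3 signals follow a gene, they belong to the parental, the cisplatin-resistant and the doxorubicin-resistant array, in that order.

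**Figure D1:**
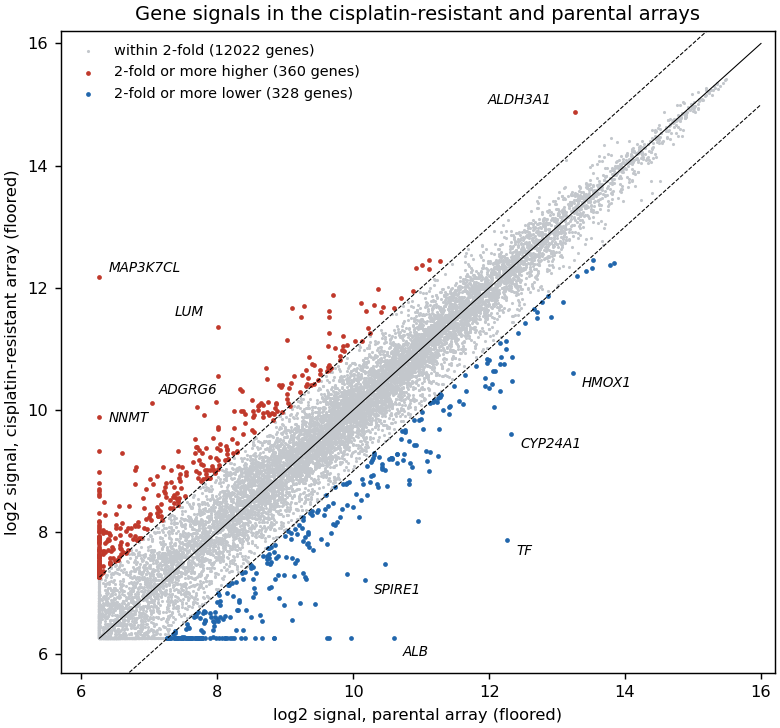
Floored log2 signal of each compared gene in the cisplatin-resistant array against the parental array, with 1 point per gene, the line of equality and dashed lines at 2-fold. The 360 higher genes are red and the 328 lower genes blue, and points along the left and lower edges lie at the floor of 76.9 on 1 array.

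The liver identity of the parental array was read from markers. Of 10 hepatocyte markers, 8 were on the array under 1 symbol and 7 were compared, and the summed signal of these 7 was 10064 in the parental array. The cisplatin-resistant sum was 1108 and the doxorubicin-resistant one 4738. Of these 7, 6 were above the floor in the parental array and were called lower in the cisplatin-resistant array. The other compared marker was under the floor in the parental array and was not called, with a log2 difference of 0.36. A further 1 of the 8 was at or under the floor on both arrays. Cholangiocyte markers were present, as 3 of 5 were compared, with sums of 11509, 15986 and 14556 in the order given above and a median log2 difference of 0.53. Of 8 fibroblast and stellate cell markers 5 were compared, and their sum was 713, 3404 and 1561. Of 17 endothelial, leukocyte, erythroid and neural markers on the array, 11 were at or under the floor on both arrays and none of the 6 compared was past 2-fold, the brightest being 2 neural markers with sums of 8791, 8613 and 5291. In bulk RNA, fewer cells of a kind and less RNA per cell cannot be told apart.

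Secreted carriers of the liver were lower as a group. Of 17 compared carriers and acute-phase proteins, 8 were lower and none higher, and the median log2 difference was -0.98. Transferrin (TF), the iron carrier of plasma, had signals of 4925, 234 and 404 and was 21.0-fold lower, with all 3 of its measured probe sets lower (log2 differences of -4.40 to -1.36). The albumin gene ALB, the main plasma protein, had signals of 1545, 76.9 or less and 3115. Against parental it was at least 20.1-fold lower in the cisplatin line, and its highest value of the 3 arrays was the doxorubicin-resistant one. The fetal carrier AFP, a marker used in the clinic for this cancer, had signals of 508, 112 and 289 and was 4.53-fold lower. IGFBP1, which binds insulin-like growth factors, showed 2427, 608 and 6495 and was 3.99-fold lower in the cisplatin-resistant array, while the doxorubicin-resistant array lay above the parental one. Angiotensinogen (AGT) at 614, 162 and 674 was 3.79-fold lower and the alpha-1-microglobulin precursor AMBP at 1217, 451 and 720.3 was 2.70-fold lower. The remaining members called were the orosomucoid gene ORM1, at least 2.69-fold lower with signals of 207, 76.9 or less and 905, and the thyroid hormone carrier TTR, on chromosome 18, 2.65-fold lower with 246, 93.0 and 188. Without genes in chromosome stretches the median was -0.69 over 15 carriers, 7 of them lower. For all 8 genes the cisplatin-resistant value was the lowest of the 3 arrays.

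All chains of fibrinogen, the clotting protein that is cleaved to fibrin, were among the lower genes. The gamma chain FGG had signals of 1004, 76.9 or less and 76.9 or less and was at least 13.1-fold lower. The beta chain FGB had 1977, 291 and 76.9 or less and was 6.78-fold lower, and the alpha chain FGA had 560.1, 155 and 76.9 or less and was 3.60-fold lower. In both sublines the fibrinogen signals lay below the parental ones, and the doxorubicin-resistant array had all 3 chains at or under the floor. The other coagulation gene called was tissue factor (F3), 2.13-fold lower at 369, 173 and 287. In all, 4 of 20 compared coagulation and fibrinolysis genes were lower and none higher, with a median log2 difference of -0.23.

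Among apolipoproteins and lipoprotein assembly genes, 2 of 16 were lower and 1 higher, with a median of -0.36. The lower ones were the phospholipid-binding plasma protein APOH, 4.04-fold lower at 4297, 1063 and 2269 (log2 differences of -2.02 to -0.32 over 2 probe sets), and APOL1, 2.52-fold lower at 1808, 717 and 1096. APOB, the structural protein of low-density lipoprotein, went the other way, with signals of 76.9 or less, 386 and 816, and was at least 5.01-fold higher. Protease inhibitors of the serpin family, many of which the liver secretes, had 6 of 16 compared members lower and none higher, with a median of -0.37. They included alpha-1 antitrypsin (SERPINA1), 3.09-fold lower at 853, 276 and 636, the glucocorticoid carrier SERPINA6, 3.94-fold lower at 331, 84.0 and 597, and the antichymotrypsin gene SERPINA3, 2.44-fold lower at 437, 179 and 184. SERPINA5 was at least 2.55-fold lower. The other lower serpins were SERPINB3 (2.52-fold) and SERPINB8 (2.20-fold), both on chromosome 18, most of whose genes were lower in this array. Without genes in chromosome stretches the median was -0.17 over 13 serpins, 4 of them lower. Over the carrier, coagulation and apolipoprotein lists together, 37 of 53 compared genes were below 0, 14 were called lower and 1 was called higher.

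**Figure D2:**
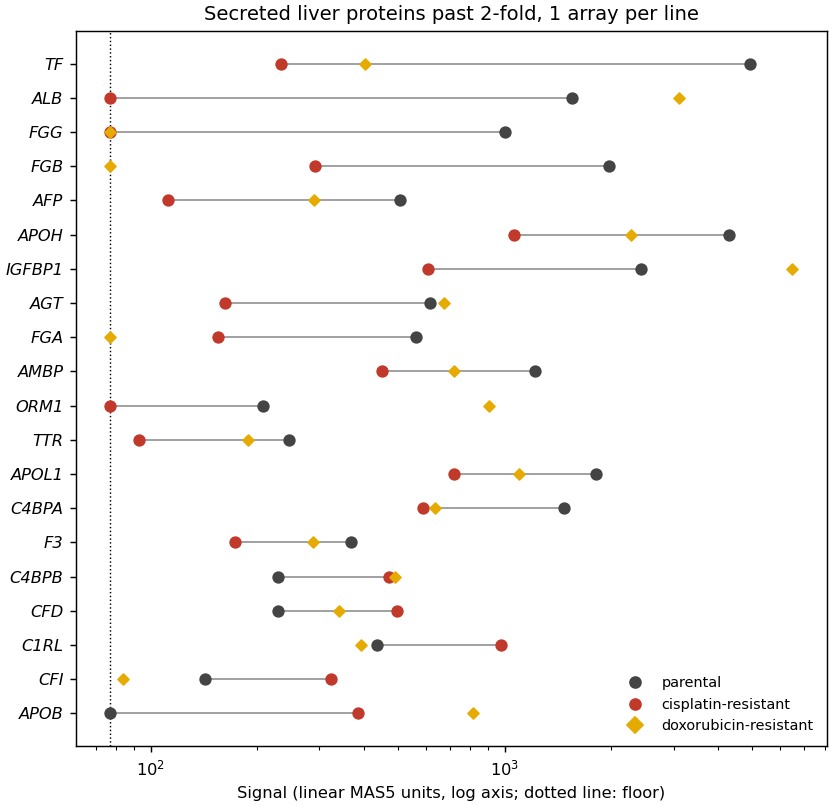
Signal on a log axis of the genes for secreted liver proteins (carriers, coagulation, apolipoproteins and complement) that were past 2-fold, with 1 value per array, a line from the parental (dark) to the cisplatin-resistant value (red), the doxorubicin-resistant value as a yellow diamond and the floor dotted. Most red points lie left of the dark ones, with TF and ALB at the top, whereas APOB and 4 complement genes at the bottom lie to the right.

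Complement, another secreted system made largely by the liver, was called higher in more cases than lower. Of 16 compared genes 4 were higher and 1 lower, with a median of 0.25. The regulatory protease CFI had signals of 142, 324 and 83.4 and was 2.28-fold higher, and C1RL, a relative of the C1r protease, had 436, 976 and 393 and was 2.24-fold higher. CFD, the protease that activates the alternative pathway, was 2.18-fold higher at 228, 497 and 340.2. The chains of the C4b-binding protein were called in opposite directions. Its alpha chain C4BPA was 2.50-fold lower at 1469, 587 and 638, and its beta chain C4BPB was 2.05-fold higher at 229, 471 and 489.8.

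Transcription factors of the liver were called in few cases, with 3 of 28 compared lower, 1 higher and a median of 0.02. CEBPA, a factor of mature hepatocytes, had signals of 4199.7, 1382 and 2765 and was 3.04-fold lower. It lies in a stretch of chromosome 19 whose genes were lower as a group, but stayed past 2-fold with neighbouring genes subtracted. Over the alternative settings its log2 difference ranged from -1.62 to -1.29. The nuclear receptor cofactor NRIP1 had 784, 76.9 or less and 76.9 or less and was at least 10.2-fold lower. It was at or under the floor in both sublines, and it lies in a stretch of chromosome 21 whose genes were otherwise mostly higher. ONECUT2, a factor of liver and biliary development, was 2.76-fold lower at 321, 116 and 783, with its 3 measured probe sets lower, lowest in the cisplatin-resistant and highest in the doxorubicin-resistant array. It lies in a lower stretch of chromosome 18, and with neighbouring genes subtracted its log2 difference was -0.66. All 3 lower factors thus lie in chromosome stretches, NRIP1 against the direction of its own, and outside stretches none of 23 was lower. PROX1, a homeobox factor of the embryonic liver, was 2.40-fold higher at 88.3, 212 and 298. Other well-known factors were within 2-fold, with log2 differences of -0.09 for FOXA1, 0.24 for FOXA2, 0.46 for HNF4G and -0.21 for CEBPB, which are named here for their role and with their values already seen.

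Bile acid and sterol transport genes were called in 5 of 13 cases. SLC51B, a subunit of the transporter that releases bile acids to blood, had signals of 2151, 647 and 876 and was 3.33-fold lower. The organic anion carrier SLCO2B1 was 3.01-fold lower at 649.7, 216 and 221, whereas SLCO1B3, a hepatocyte uptake carrier, was at least 2.73-fold higher at 76.9 or less, 209.9 and 76.9 or less. The flippase ATP8B1 (2.03-fold lower) and the lysosomal cholesterol carrier NPC1 (2.02-fold lower) lie on chromosome 18. Without genes in chromosome stretches (an alternative chosen after seeing the data), the median of this list turned from -0.20 to 0.24 with 2 lower members.

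Interferon-stimulated genes were higher as a group. Of 57 compared, 43 were above 0, 7 were called higher and 1 lower, and the median log2 difference was 0.35. IFI27, a mitochondrial membrane protein induced by type I interferon, had signals of 208, 1061 and 133 and was 5.11-fold higher. The exonuclease ISG20 had 419, 1650.3 and 1157 and was 3.94-fold higher, with log2 differences of 1.34 to 1.98 over its 2 probe sets. IFI27 was below parental in the doxorubicin-resistant array, whereas ISG20 was above parental in both sublines. The helicase-like antiviral gene DDX60 was 2.38-fold higher at 178, 423 and 173, and the GTPase GBP1 was 2.36-fold higher at 213, 503 and 351, with another of its probe sets at a log2 difference of 0.15. SAMD9L, an antiviral translation repressor, was 2.34-fold higher at 163, 380.2 and 419.9, OASL 2.11-fold higher at 172, 363 and 359 and IFI44 at least 2.05-fold higher at 76.9 or less, 158 and 76.9 or less. The lower member was APOL1, described with the apolipoproteins. Other widely used markers were within 2-fold, with log2 differences of 0.51 for ISG15, 0.80 for IFIT1, -0.97 for IFITM1 and 0.00 for OAS1, named for their use and with their values seen. The genes of interferon sensing and signalling had a median of -0.01 over 26 genes, with 1 lower, the phosphatase PTPN2 on chromosome 18 (2.76-fold lower). Antigen presentation genes had a median of 0.21 over 26 genes with 2 higher, the presenting molecule MR1 (at least 2.67-fold higher at 76.9 or less, 205 and 76.9 or less) and the NKG2D ligand ULBP2 (2.05-fold higher at 666, 1367 and 1282). The bound for MR1 holds for the probe set used. In 4 of 8 alternative settings, the median over probe sets among them, MR1 was under 2-fold (lowest log2 difference, 0.49).

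Promoters are shown for the 3 called interferon-stimulated genes that have a single RefSeq start and hold a match to the core of the response element, since this is the feature these genes are known to share. Each is the 150 bases before the start of transcription (build GRCh38.p14). Capitals mark matches to the core, GAAANNGAA, on either strand, where N is any base.
ISG20 (chr15:88638866-88639015, plus strand): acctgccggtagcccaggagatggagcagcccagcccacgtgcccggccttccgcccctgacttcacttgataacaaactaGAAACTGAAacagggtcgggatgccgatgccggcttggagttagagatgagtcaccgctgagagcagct
DDX60 (chr4:168318753-168318902, minus strand): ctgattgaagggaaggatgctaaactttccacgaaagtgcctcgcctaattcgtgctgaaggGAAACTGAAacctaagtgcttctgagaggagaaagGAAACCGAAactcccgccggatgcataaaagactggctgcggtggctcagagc
GBP1 (chr1:89065209-89065358, minus strand): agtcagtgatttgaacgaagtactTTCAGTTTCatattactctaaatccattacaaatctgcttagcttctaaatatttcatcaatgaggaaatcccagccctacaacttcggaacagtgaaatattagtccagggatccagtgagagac
The match starts 69 bases before the start of ISG20 and 126 before that of GBP1, and DDX60 holds 2, at 88 and 53 bases. Within 250 bases before a start, the core was found in 5 of the 6 called genes with a promoter in the table, in 25 of 47 compared list members, in 7.35% of all compared genes with a promoter and in 6.88% of all promoters. SAMD9L, called and with a single start as well, has no match in its window and is not shown. The list itself was drawn up from known interferon targets, so these shares describe the list and not the subline.

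Genes that carry platinum into or out of cells were close to parental. Of 15 compared copper and platinum carriers and chaperones, 14 were within 2-fold and the median log2 difference was 0.08. The copper importer SLC31A1, a route of cisplatin entry, had signals of 1659, 1526 and 2163, and the related SLC31A2 had 381, 242 and 241. The copper exporting ATPases had 482, 429 and 432 for ATP7A and 120.0, 127 and 101 for ATP7B, and the copper chaperone ATOX1 had 2003, 2303 and 2521. None of these 5 pairs of parental and cisplatin-resistant values was 2-fold apart. The called member was the mitochondrial copper chaperone COX17, 2.03-fold higher at 77.4, 157 and 99.5, with the parental value at the edge of the floor. All 4 compared subunits of the volume-regulated anion channel were below 0 and none was called. LRRC8A, its obligatory subunit, had 4694, 4436 and 4539, and LRRC8D, the subunit tied to cisplatin uptake, had 1172, 958 and 1471. LRRC8E came nearest to the threshold, with 327, 175 and 277 and a log2 difference of -0.90. Metallothioneins, which bind platinum, had signals of 336, 457 and 439.8 for MT1X (another of its probe sets was 2.26-fold higher, at 161, 365 and 324) and 869, 947 and 1032 for MT2A, and 1 of 6 was called, MT1H at 113, 234 and 76.9 or less (2.07-fold higher). Probe sets of metallothioneins can share signal, since the copies are much alike.

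Efflux pumps had 2 of 12 compared members called higher and none lower, with a median of 0.28. ABCC3, a basolateral conjugate pump of liver cells, had signals of 3233, 6096 and 4637, just under the threshold, with log2 differences of 0.66 to 1.25 over 5 probe sets that were all higher. P-glycoprotein (ABCB1), which exports doxorubicin but is not known as a cisplatin pump, had 897, 1801 and 9499. Its cisplatin-resistant value was 2.01-fold the parental one by its brightest probe set and level by the other (log2 difference of 0.03), and the doxorubicin-resistant value was far above both. ABCA3, a lamellar lipid pump, was 2.13-fold higher at 125, 266 and 256. The pumps for glutathione-platinum conjugates were not called, with 5181, 4327 and 4238 for ABCC1 and 3364, 2892 and 3353 for ABCC2.

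Thiol defence genes had a median near 0 and a few higher members. Of 45 genes for glutathione synthesis, use and thiol antioxidants, 42 were within 2-fold, 3 were higher (6.67%) and none was lower, and the median was 0.05. The enzymes that make glutathione had log2 differences of -0.14 for GCLC, -0.09 for GCLM and 0.39 for GSS, and the cystine importer SLC7A11 had -0.16. The transferase GSTP1, much studied in cisplatin resistance, had signals of 4595, 4333 and 4834. Thioredoxin reductase TXNRD1 had 30579.7, 28574 and 29608 and NQO1 had 28532, 27861 and 29005, so these NRF2 targets lay at like levels on all arrays. The 3 higher genes were the secreted peroxidase GPX3 at 1103, 3444 and 1607 (3.12-fold higher), the transferase GSTO2 at 204, 741 and 656 (3.64-fold higher) and GSTA4, which conjugates lipid aldehydes, at 1664, 3639 and 2059.7 (2.19-fold higher). Heme oxygenase HMOX1, another NRF2 target that degrades haem, had signals of 9642, 1564 and 5584 and was 6.17-fold lower. It was below parental in both sublines.

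DNA repair genes were within 2-fold with few exceptions. None of 26 nucleotide excision repair genes, none of 17 mismatch repair and translesion synthesis genes and none of 32 base excision and end joining genes was called, and their medians were 0.15, 0.15 and 0.09. The excision repair endonuclease subunits had signals of 2356, 1890.3 and 2088 for ERCC1 and 578, 590.3 and 608 for ERCC4, and the damage sensors 942, 1039.9 and 444 for XPC and 506, 807 and 811 for DDB2. DDB2 was above parental in both sublines and ERCC1 below it in both, by under 2-fold in these probe sets. A dimmer probe set of ERCC1 was 2.38-fold lower, at 1156, 486 and 813, so ERCC1 probe sets spanned log2 differences of -1.25 to -0.26. The largest excision repair difference was that of ERCC6, a factor of transcription-coupled repair, at a log2 difference of 0.86 with signals of 89.8, 163 and 108. Among translesion polymerases POLH had 203, 281 and 188 and REV3L had 713, 793 and 856, while POLI, on chromosome 18, had 204, 123 and 164. REV1 had a log2 difference of 0.21, but one of 1.21 without _s_at and _x_at probe sets, so it too depends on the probe set. Of 35 crosslink repair and homologous recombination genes, 33 were within 2-fold, with a median of 0.04. The Werner helicase WRN was 2.09-fold lower at 611, 292 and 395. RAD51B was called at least 2.15-fold higher from signals of 76.9 or less, 166 and 109, but another of its 3 measured probe sets had a log2 difference of -0.44, so the direction of its call depends on the probe set. BRIP1 and RAD51C, both in a lower stretch of chromosome 17, had log2 differences of -0.82 and -0.73 (-1.33 in another BRIP1 probe set), and FANCG one of 0.59. BRCA1 at 1705, 1613 and 2186 and FANCI at 2499.5, 2792 and 2732 showed no difference near the threshold.

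Drug metabolising enzymes were called in both directions, 6 higher and 4 lower of 49. The vitamin D catabolic enzyme CYP24A1 had signals of 5135, 781 and 3239 and was 6.58-fold lower, and CYP2B6, a hepatic enzyme induced by xenobiotics, had 549.6, 94.3 and 889 and was 5.83-fold lower. CYP2B6 was lowest in the cisplatin-resistant and highest in the doxorubicin-resistant array. The aldehyde dehydrogenase ALDH3A1 was bright on all arrays, with 9799.5, 30222 and 11266, and was 3.08-fold higher. The fatty acid hydroxylases CYP4F2 (2.77-fold) and CYP4V2 (2.64-fold) were higher too. SULT1A1 was 2.55-fold higher by its brightest probe set, but a further probe set had a log2 difference of -0.40, and sulfotransferase copies are near-identical in sequence. Outside this list, nicotinamide methyltransferase NNMT had signals of 76.9 or less, 946 and 87.4 and was at least 12.3-fold higher, with both measured probe sets higher.

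**Figure D3:**
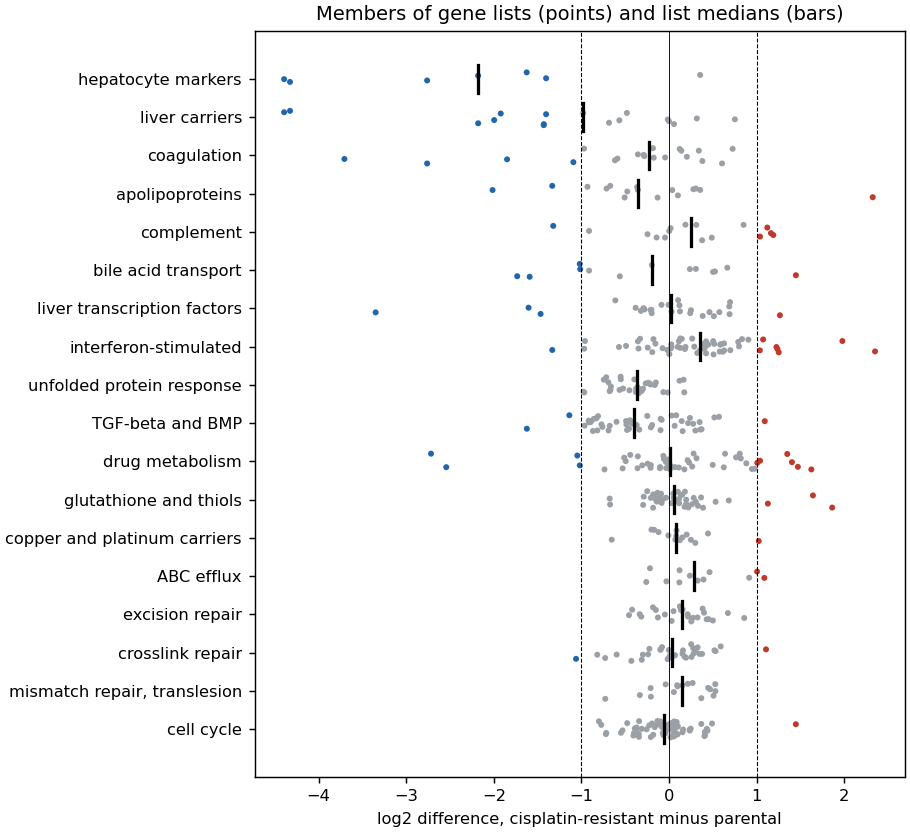
Log2 difference between the cisplatin-resistant and parental arrays for each compared member (points) of 18 gene lists, with the list median as a bar and dashed lines at 2-fold. Hepatocyte markers and liver carriers reach far to the left, with medians of -2.18 and -0.98, interferon-stimulated genes have a median of 0.35, and the repair, copper and thiol lists cluster around 0.

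The unfolded protein response showed a shallow shift shared by most members. Of 32 compared genes 29 were below 0, with a median of -0.37, but none was called, and the lowest log2 difference was -0.98. The chaperone HSPA5 of the endoplasmic reticulum had signals of 13378, 8447 and 12984, SDF2L1 had 2499, 1278 and 1855, HSP90B1 had 1889, 1149 and 1596 and PDIA4 had 5719.8, 3598 and 7206. These genes, chosen for their role after their values were seen, were all lower in the cisplatin-resistant than in the parental array. Targets of the ATF4 branch, which also answers amino acid shortage, had log2 differences of -0.30 for DDIT3, -0.40 for TRIB3, -0.68 for CHAC1 and 0.12 for ASNS. In the doxorubicin-resistant array these 4 genes stood above parental, for example DDIT3 with 1867, 1519.5 and 5136.

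The TGF-beta and BMP pathway also lay below parental, with 31 of 46 genes below 0 and a median of -0.40, 2 called lower and 1 higher. Its ligand genes had log2 differences of -0.86 for TGFB1, -0.68 for TGFB2, -0.89 for BMP2 and -0.87 for BMP6, and BMP4 was 2.13-fold higher at 372, 794 and 323. The signal transducers SMAD2, at 1557, 825 and 1721 with log2 differences of -1.19 to -0.07 over 5 probe sets, and SMAD4, at 1019, 522 and 1160.0, and the called genes SMAD7 (3.08-fold lower at 575, 187 and 599.5), an inhibitor of the pathway, and TGIF1 (2.20-fold lower), a corepressor, all lie on chromosome 18. The target genes ID1, ID2 and ID3, which lie elsewhere, had signals of 23372, 13796 and 23423, of 5218, 2769 and 5772 and of 12961, 6967 and 10538. Each ID gene was below parental in the cisplatin-resistant array, by under 2-fold in these probe sets, and ID2 had log2 differences of -1.72 to -0.91 over 2 probe sets. Without genes in chromosome stretches the median of the list was -0.25 over 41 genes, with 26 below 0. The ligands, SMAD and ID genes named here were chosen for their role after their values were seen.

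TNF receptors and their ligands were called higher in 4 of 25 cases and lower in 1, the ligand EDA on chromosome X. Osteoprotegerin (TNFRSF11B), a secreted decoy receptor that binds TRAIL and RANK ligand, had signals of 96.7, 628 and 687 and was 6.49-fold higher. FAS, the 1 death receptor among the called members, had 79.7, 253 and 194 (3.18-fold higher, with log2 differences of 0.34 to 1.67 over 4 probe sets) and TNFRSF1B had 120.4, 376 and 296 (3.12-fold higher). TNFRSF18 was 2.45-fold higher. All 4 receptors were above parental in both sublines. Of 46 apoptosis regulators 45 were within 2-fold, and the exception was PMAIP1, a pro-apoptotic BH3-only gene on chromosome 18, 2.77-fold lower at 2711, 978 and 2978. Of 44 p53 and damage signalling genes 2 were higher and 1 lower, with a median of -0.01. This share of 6.82% is near the 5.41% of all compared genes. The largest difference among them was that of SESN3, at least 3.63-fold higher at 76.9 or less, 279 and 76.9 or less. The inhibitor of cyclin-dependent kinases CDKN1C was the only 1 of 69 cell cycle genes called, 2.73-fold higher at 490.1, 1337 and 963, with its 4 probe sets at log2 differences of 1.03 to 1.45.

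Junction and keratin genes of epithelia were called higher in 7 and lower in 3 of 44 cases, with a median of 0.15. The junction receptor CXADR, on chromosome 21, had signals of 522, 2274 and 1035 and was 4.35-fold higher, with log2 differences of 2.10 to 2.23 over 3 probe sets. The microvillus protein VIL1 was 3.32-fold higher at 305, 1010.1 and 1361 and E-cadherin (CDH1) 2.14-fold higher at 798, 1708 and 3062. Claudin CLDN2 went down, 6.12-fold lower at 697, 114 and 119, and so did keratin KRT7, 3.22-fold lower at 818, 254 and 838. KRT7 was the 1 called of 3 compared cholangiocyte markers, and the others were above 0, KRT19 at 8851, 12819 and 12056 (log2 difference of 0.53) and SOX9 at 1840.1, 2912 and 1662 (0.66). Mesenchymal genes were called in both directions, 3 higher and 2 lower of 30. Vimentin (VIM) was 2.76-fold higher at 493, 1362 and 428 and belongs to the higher region of chromosome 10, and TGFBI was 2.38-fold lower at 4849, 2037 and 3325. The proteoglycan lumican (LUM) had signals of 258, 2632 and 1167 and was 10.2-fold higher by its brightest probe set, while its other measured probe set had a log2 difference of 0.07. LUM is also a fibroblast and stellate cell marker. Of the other such markers, COL1A1 had signals of 309, 511 and 242, and DCN, ACTA2 and THY1 lay at 76.9 or less, 86.0 and 76.9 or less, at 76.9 or less, 91.7 and 76.9 or less and at 76.9 or less, 82.5 and 76.9 or less. LUM had the highest signal of these markers in both sublines, and COL1A1 in the parental array, whereas COL1A2, COL3A1 and PDGFRB were at or under the floor on both arrays. The part of other cells in the LUM signal was not tested.

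In the lists of secreted signals and of proteases used here, more members were called lower than higher. CSF1, the macrophage growth factor, had signals of 1801, 441 and 468 and was 4.09-fold lower, and the chemokine CCL20 had 1439, 433 and 2377 and was 3.33-fold lower. CCL20 was highest in the doxorubicin-resistant array. The decoy receptor IL13RA2 was 3.57-fold lower at 4553, 1277 and 1545, and IL32 was 2.56-fold higher at 632, 1619.7 and 2695. In all 4 of 52 cytokine genes were lower and 2 higher. The list of extracellular proteases and their inhibitors had 4 of 54 lower and none higher, with a median of -0.14. They were the collagenase MMP1 (3.20-fold lower at 505, 158 and 505), the inhibitor TIMP1 (2.66-fold lower at 14091, 5288 and 8196), the serine protease HTRA3 (4.23-fold lower at 635, 150.0 and 344) and the cystatin CST1 (at least 4.24-fold lower at 326, 76.9 or less and 76.9 or less). TIMP1 lies in the lower stretch of chromosome X. The list leaves out the complement proteases CFI, C1RL and CFD, which were called higher. It also leaves out the protease inhibitor SPINT1, higher at a log2 difference of 1.53 but of 0.82 as the median over probe sets. Among 63 genes listed as receptor tyrosine kinases and ligands 6 were lower and 1 higher, and the lower ones included FGF2, 2.83-fold lower at 272, 95.9 and 326. FGF13, listed for its gene family and not for a shown role as a ligand, and ephrin EFNB1 (2.34-fold lower at 182, 78.1 and 185) were lower too, both on chromosome X. IGFBP5, a binding protein of insulin-like growth factors, was 2.55-fold lower at 1517, 595 and 483. CD24, a surface glycoprotein used as a marker of liver cancer stem cells, was 2.71-fold lower at 14682, 5420.2 and 14877, with all 6 measured probe sets lower. Over its list of liver cancer stem and surface markers, however, 11 of 16 were above 0 with a median of 0.20, 1 was higher (ALDH3A1) and 2 were lower (CD24 and AFP).

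The largest single differences included genes of signalling and membrane traffic. MAP3K7CL, on chromosome 21, had signals of 76.9 or less, 4614 and 95.0 and was at least 60.0-fold higher, by a single measured probe set. The adhesion receptor ADGRG6 had 131, 1106 and 219 and was 8.44-fold higher, 1 of 3 higher members among 30 orphan and adhesion receptors. TMEM47, a junction-associated membrane protein, was at least 8.35-fold higher at 76.9 or less, 642 and 510.5, and its other measured probe set had a log2 difference of 0.87. The neighbouring genes TMEM176A and TMEM176B, which encode related membrane proteins, had 602, 2956 and 1239 and 621, 3347 and 2065. They were 4.91-fold and 5.39-fold higher and above parental in both sublines. The vasopressin receptor AVPR1A was at least 5.82-fold higher at 76.9 or less, 448 and 88.2, and RGS1, which turns off G protein signals, 4.02-fold higher at 110.2, 443 and 76.9 or less. The glycosyltransferase GCNT1 was at least 5.30-fold higher at 76.9 or less, 408 and 251, ACSS3, which activates short-chain fatty acids, at least 6.59-fold higher at 76.9 or less, 507 and 76.9 or less and the transcription factor GATA3 3.09-fold higher at 1315, 4058 and 1637. GATA3 had all 3 measured probe sets higher, at log2 differences of 1.61 to 1.73. Potassium channels and their subunits had 5 of 32 compared members lower and none higher, but with the floor at the 25th percentile 10 were lower and 10 higher of 75 and the median turned from -0.10 to 0.08. KCNE4, a subunit that inhibits voltage-gated channels, led them, 3.91-fold lower at 1813, 464 and 683. The trafficking gene SYT13 was 3.63-fold lower at 5172, 1426 and 3608, and the mitochondrial co-chaperone DNAJC15 3.48-fold lower at 1856, 534 and 2401. The galectin LGALS2 was at least 5.26-fold lower at 404, 76.9 or less and 449, at or under the floor only in the cisplatin-resistant array.

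Homeobox genes of the HOX clusters were above parental in all 14 compared cases, with a median log2 difference of 0.81 and 3 called higher. These were HOXB4 at 76.9 or less, 179 and 163 (at least 2.33-fold higher), HOXC6 at 629.6, 1338 and 1213 (2.13-fold higher) and HOXC11 at 112, 235 and 208 (2.09-fold higher). The 7 compared HOXB genes had log2 differences of 0.17 to 1.22 and the 5 HOXC genes of 0.08 to 1.09, while HOXA2 and HOXD1 had 0.26 and 0.10. The HOXB cluster lies in a higher stretch of chromosome 17, and without it the median was 0.42. With the median of neighbouring genes subtracted it was 0.36 over the 14 genes, 4 of which were then below 0. Zinc finger genes named ZNF, most of which repress transcription, leaned the other way, with 211 of 322 below 0, 15 lower, 2 higher and a median of -0.16. The 134 on chromosome 19 had a median of -0.28, and the 188 elsewhere one of -0.05. The other genes of chromosome 19 had a median of -0.08. A stretch of 23 genes from ZFP28 to ZNF329 had a median of -0.49 (doxorubicin-resistant line, -0.45), and its lower members were ZNF416, ZNF548, ZNF134 and ZNF606 (for ZNF548, 477, 194 and 127 and 2.45-fold lower).

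Called genes were unevenly spread over chromosomes. Of 175 compared genes on chromosome 18, 41 were lower, 1 was higher and 90.3% were below 0, with a median log2 difference of -0.72. Chromosome X had 60 lower and 11 higher of 406 and a median of -0.36, and chromosome 21 had 20 higher and 2 lower of 138 and a median of 0.41. Medians over 15 neighbouring compared genes reached 0.5 from 0 in 3.37% of windows. Runs of such windows formed 19 stretches, 9 higher and 10 lower. They held 764 genes (6.02% of compared genes with a chromosome) and 161 of the 688 called genes (23.4%). Since stretches were picked on these same differences, a larger share of called genes in them is partly built in and is no separate result. The lowest stretch ran from BCOR to IGBP1 on chromosome X, with 104 compared genes, a median of -0.87 and 44 genes called lower. It held the ectodysplasin gene EDA at 627, 154 and 368 (4.08-fold lower), the translation factor GSPT2 at 2179, 573 and 1739 (3.80-fold lower), the transcription factors TFE3 and ELK1 (3.12-fold and 2.58-fold lower), and the histone demethylase KDM6A (2.98-fold lower). The doxorubicin-resistant array had a median of -0.43 over the same genes. A further X stretch, from SLC25A43 to ZNF185, had a median of -0.51 (doxorubicin-resistant line, -0.47) and held FGF13 at 799, 76.9 or less and 76.9 or less (at least 10.4-fold lower), the cancer-testis antigen MAGEC2 at 962, 159 and 629.9 (6.06-fold lower) and the remodelling ATPase SMARCA1 at 2208, 511 and 1455 (4.32-fold lower).

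Chromosome 18 had 2 stretches. The one from USP14 to RMP24 held 88 genes, with a median of -0.75 and 23 genes lower. It included the actin nucleator SPIRE1 at 1155, 149 and 193 (7.76-fold lower), the mechanosensitive channel PIEZO2 at 377, 76.9 or less and 282 (at least 4.90-fold lower) and the BMP modulator TWSG1 at 2448, 822 and 1275 (2.98-fold lower). The one from TPGS2 to HSBP1L1 held 76 genes, with a median of -0.73 and 18 genes lower, among them SMAD7, the phosphatase PHLPP1 at 462, 151 and 497 (3.05-fold lower) and the ubiquitin ligase NEDD4L at 1704, 578 and 2082 (2.95-fold lower). The doxorubicin-resistant array had medians of -0.37 and 0.05 over these stretches.

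Higher stretches included NET1 to MAP3K8 on chromosome 10, with 83 genes, a median of 0.57 and 16 genes higher, where the doxorubicin-resistant median was 0.00. Its members included the kinase CAMK1D at 76.9 or less, 292 and 76.9 or less (at least 3.80-fold higher), FAM171A1 at 802, 2939 and 1589.6 (3.66-fold higher) and the polarity scaffold MPP7 at 76.9 or less, 257 and 76.9 or less (at least 3.34-fold higher). On chromosome 17 the stretch from UBB to MAPK7 held 37 genes, with a median of 0.55, and included the cation channel TRPV2 at 330.3, 1269 and 318 (3.84-fold higher) and the one-carbon enzyme SHMT1 at 151, 449 and 155 (2.98-fold higher). Chromosome 21 had 3 higher stretches with medians of 0.51, 0.53 and 0.53, which held CXADR, MAP3K7CL, the deubiquitinase USP25 (2.86-fold higher) and the calcineurin regulator RCAN1 (2.16-fold higher). With the median of neighbouring genes subtracted, 280 of 360 higher genes and 216 of 328 lower ones were still called. Those past the threshold included SPIRE1, SMARCA1, FGF13, PIEZO2, GSPT2, TRPV2, USP25 and MAP3K7CL, and those no longer past it included SMAD7, PMAIP1, TIMP1, TFE3, VIM, NEDD4L and ELK1.

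**Figure D4:**
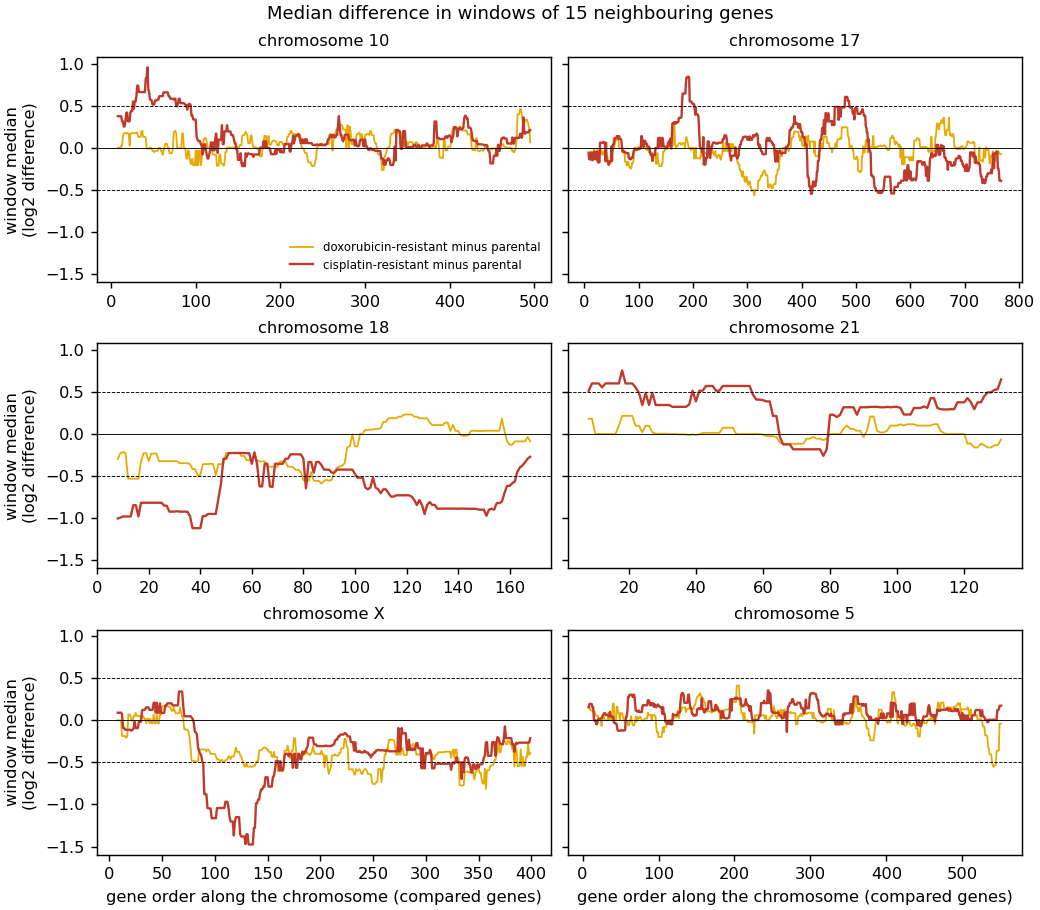
Median log2 difference from parental in windows of 15 neighbouring compared genes, against gene order along chromosomes 10, 17, 18, 21, X and, as an example without a stretch, 5, for the cisplatin-resistant (red) and doxorubicin-resistant (yellow) arrays, with dashed lines at 0.5 from 0. The red line stays low over most of chromosome 18, dips to -1.48 on X and rises to 0.95 on chromosome 10, where the yellow line stays near 0.

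Enzymes that break down amino acids had 4 of 31 compared members higher and none lower, with a median of 0.11. Besides NNMT, they included the urea cycle enzyme ASL at 1552, 3245 and 5141 (2.09-fold higher), whose doxorubicin-resistant value was higher still, and the proline dehydrogenase PRODH at 110.2, 279 and 181 (2.53-fold higher). Amino acid carriers leaned lower, with a median of -0.22 over 39 genes, 3 lower and 1 higher. The cystine and dibasic amino acid carrier subunit SLC3A1 was 3.09-fold lower at 1317, 426 and 1148 and SLC7A7, a light chain that carries dibasic amino acids, 2.11-fold lower at 1258, 596 and 554, while the glutamate carrier SLC1A7 was 3.42-fold higher at 426, 1455 and 1412. Eicosanoid genes were called in 3 of 22 cases. The cyclooxygenase PTGS1 was 3.04-fold higher at 245, 745 and 213 and the phospholipase PLA2G4A, which releases its substrate, 2.22-fold higher at 523, 1159 and 239. PTGS1 was under 2-fold without _s_at and _x_at probe sets and with the floor at the 75th percentile (lowest log2 difference, 0.55). The prostacyclin synthase PTGIS was 2.79-fold lower at 247, 88.5 and 1116. GCH1, the first enzyme of tetrahydrobiopterin synthesis, was 2.75-fold higher at 212, 583 and 501, and the zinc and manganese carrier SLC39A8 3.11-fold higher at 82.5, 257 and 176, with another of its probe sets at a log2 difference of 0.05.

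Of 97 actin regulators, which act on the cell's shape, 5 were higher and 1 lower, the lower one being SPIRE1 on chromosome 18. This share of 6.19% is near the 5.41% of all compared genes. The unconventional myosin MYO10 was 2.60-fold higher at 430.4, 1119 and 860.1 and the actin nucleator COBL 2.66-fold higher at 387, 1029 and 1253. MYO10 was under 2-fold with the median over probe sets and without _s_at and _x_at probe sets (lowest log2 difference, 0.28). The guidance cue SEMA3A was 3.25-fold higher at 208, 674 and 256, past 2-fold in both of its probe sets. The water channel AQP3 was 2.71-fold higher at 557, 1511 and 369.8, with its other probe sets at log2 differences of 0.53 and 0.56. Of 52 collagen, laminin, integrin and proteoglycan genes 2 were higher, LUM and COL9A3 (at least 2.73-fold at 76.9 or less, 210.2 and 123), and 2 lower, COL6A3 (2.51-fold at 1499, 597 and 147) and the syndecan SDC3 (at least 2.17-fold at 167, 76.9 or less and 122). The matrix protein SPARC, of the mesenchymal list, was at least 2.24-fold lower at 172, 76.9 or less and 76.9 or less. Annexins, which bind membranes in the presence of calcium, had 2 of 10 higher and 1 lower. ANXA6 was 2.58-fold higher at 165, 426 and 76.9 or less and ANXA3 2.39-fold lower at 226, 94.6 and 161.

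Among transcriptional regulators, the ETS factor ETV1 had signals of 112, 537 and 296 and was 4.79-fold higher, with all 4 measured probe sets higher (log2 differences of 0.78 to 2.26). MITF, a factor of lysosomal and melanocyte genes, was 2.79-fold higher at 390.2, 1089 and 953, within a higher stretch of chromosome 3. The Notch target HEY1 was bright and 2.48-fold lower at 4639, 1873 and 2456, and TBX2, a repressor in a lower stretch of chromosome 17, 3.96-fold lower at 480.3, 121 and 139.6. Of 111 chromatin genes 3 were higher and 4 lower (6.31%, near the 5.41% of all compared genes). HMGN5, a nucleosome-binding protein, was 3.77-fold higher at 171, 643 and 502, although it lies on chromosome X, and the histone methyltransferase SUV39H1, in the lower X stretch, was 2.93-fold lower at 1304, 444 and 939.7. The call of HMGN5 depends on the probe set, as another had a log2 difference of 0.39. Cancer-testis antigens, germline genes that tumours reactivate, were at or under the floor on both arrays in 25 of 34 cases, and 4 of the 9 compared were called. MAGEB2 (3.25-fold higher at 160.0, 519.7 and 169.5) and MAGEA1 (2.73-fold higher at 149, 407 and 76.9 or less) were higher, and MAGEC2 and MAGEC1 (2.43-fold lower at 239, 98.1 and 76.9 or less) lower, all on chromosome X.

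Large house-keeping families were within 2-fold with 1 exception. None of 59 cytosolic ribosomal protein genes, 75 mitochondrial ribosomal protein genes, 42 proteasome genes, 48 translation initiation factor genes, 34 kinesin genes or 23 histone genes was called, and their medians lay between -0.17 and 0.09. Of 84 respiratory chain and ATP synthase genes 1 was called, NDUFB11 on chromosome X, 2.24-fold lower at 11052, 4935 and 7824, with a median of 0.11. None of 34 glycolysis and hypoxia genes and none of 24 citric acid cycle genes was called. Fatty acid genes had a median of 0.25 over 46 genes, with 34 above 0, 1 higher and 2 lower.

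Further probe sets of the same gene bear on these calls. Of the 360 higher genes 148 had other measured probe sets, whose median had the same sign for 137 and was itself past 2-fold for 37. Of the 328 lower genes 138 had them, with the same sign for 128 and past 2-fold for 61. The remaining 212 higher and 190 lower genes rest on 1 measured probe set. Where several probe sets of a gene exceeded the floor in the parental and the cisplatin-resistant line, 23 of 90 higher and 33 of 103 lower genes were past 2-fold in every measured probe set, and GATA3, CXADR, CDKN1C, FGB, SMARCA1 and SERPINA1 are such genes.

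**Figure D5:**
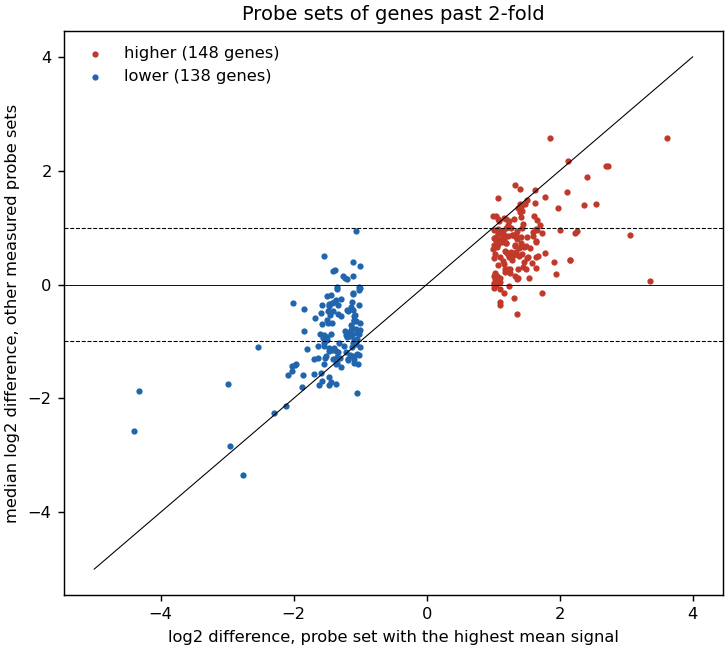
Median log2 difference over the remaining measured probe sets of a gene against that of the probe set used for it, for the 148 higher (red) and 138 lower (blue) genes with several measured probe sets, with the line of equality and dashed lines at 2-fold. Most points have the sign of the probe set used, 137 higher and 128 lower genes, but lie nearer to 0.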

How the data were processed

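Total RNA of 3 cell lines, 1 array each, was hybridised to Affymetrix U133 Plus 2.0 arrays. The authors deposited linear MAS5 signal intensity values, per the submitters' processing notes; the MAS5 version and its scaling settings are not given in the sources used here. The deposited intensity values were not renormalized. Values under the median of all values (76.9), control probe sets included, were raised to it, and log2 was taken in Python (pandas 2.3.3, numpy 2.4.6). Control probe sets without a gene symbol took no part in the gene comparison. Of the probe sets, 41097 carry 1 symbol, 1801 several and 11721 none, and 41043 of the 41097 were renamed through RefSeq (GRCh38.p14). Where a gene had several probe sets, the brightest over the arrays by mean log2 stood for it. With 1 array per line no test was made, and a call is a 2-fold difference. Chromosome stretches are runs of windows of 15 neighbouring compared genes with a median at least 0.5 from 0. The script was tested on simulated data.

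Named genes are the 16 most different per direction among those with several probe sets of 1 sign, the 10 in each direction with the largest bound, up to 6 called members of each of 58 lists and 48 families, all members of lists marked as core, and the ends and up to 4 members of each stretch. Further list members were named for their role, or to complete a list, after their values were seen. The members, lists and rules were chosen with earlier results of these data known. Some items are not reported here. Alternatives were other floors, an added constant, other scalings, other probe set rules, a 3-fold threshold and subtraction of neighbouring genes.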

Additional observations from a re-analysis of the deposited data

Results flagged for a closer look

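Called genes whose doxorubicin-resistant value lay at least 2-fold from parental in the opposite direction are given here, over all compared genes. Both differences use the same parental array and there is 1 array per line, so their difference was not tested. Lower in the cisplatin-resistant and higher in the doxorubicin-resistant array were the secreted liver genes ALB, IGFBP1 and ORM1, with log2 differences between the cisplatin-resistant and parental arrays of -4.33, -1.997 and -1.43. The same held for PTGIS at -1.48, ONECUT2 at -1.47, the claudin CLDN1 at -1.29 and the engulfment gene ELMO1 at -1.27. Those higher in the cisplatin line but lower in the doxorubicin line were the secreted airway protein BPIFB1 at 2.57, the noncoding RNA LINC00326 at 2.55 and the neuropeptide NMU at 2.01. ANXA6 at 1.37, the ribonuclease RNASE1 at 1.31, RGCC at 1.17, SYNGR1 at 1.17, PLA2G4A at 1.15 and CDCA7L at 1.05 were the others.

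Probe sets without 1 gene symbol took no part in the gene comparison. Of 5414 of them compared, 115 were higher and 92 lower by 2-fold or more, together 3.82%, against 4.93% of 24005 named probe sets.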

How the results depend on the processing

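The counts of 360 higher and 328 lower genes depended on the floor and the threshold. They were 1016 and 1022 with the floor at the 25th percentile (17393 genes compared) and 105 and 124 at the 75th (8381 compared). A 3-fold threshold left 81 and 75. With quantile normalization, centring, lowess, an added constant of 50, the median over probe sets, removal of _s_at and _x_at probe sets, or subtraction of neighbouring genes, the counts stayed within 1.5 times. Among 281 called genes that were named by rule, 112 were past 2-fold in each setting that gave a value, and 3 changed sign. RAD51B had -0.44 with the lower floor, -0.31 with 50 added and -0.29 as the median over probe sets. SULT1A1 had -0.40 without _s_at and _x_at probe sets, and EBP, a sterol enzyme on chromosome X, had 0.051 with neighbouring genes subtracted. The median of the carriers ranged from -1.20 to -0.69, of interferon-stimulated genes from 0.20 to 0.41 and of the unfolded protein response from -0.45 to -0.34. Between 4 and 10 carriers and between 0 and 9 serpins were lower, and between 2 and 13 interferon-stimulated genes, 1 and 5 complement genes and 0 and 7 HOX genes were higher. No paired analysis was possible because each line has 1 array. With 1 array per line, the precision of each value is unknown, and dim genes carry most of the calls.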

Other observations

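Genes that shape G protein and cyclic nucleotide signals were called in both directions, with signals again in the order parental, cisplatin-resistant and doxorubicin-resistant. Of 11 compared regulators of G protein signalling 2 were higher and 1 lower. RGS4 was 2.85-fold higher at 149, 426 and 76.9 or less, with a further probe set at a log2 difference of 0.46, and RGS17 was 3.14-fold lower at 244, 77.8 and 77.5. Phosphodiesterases, which degrade cyclic nucleotides, had 2 of 14 higher and none lower, PDE9A at 258, 830.0 and 436 (3.21-fold higher) and PDE3A at 76.9 or less, 244 and 161 (at least 3.17-fold higher). The calcium channel subunit CACNG4 was 5.16-fold lower at 593, 115 and 148.

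Glycosylation enzymes gave 4 higher and 1 lower of 51 mucin-type glycosyltransferases and sialyltransferases. ST8SIA4, which builds polysialic acid, was 2.63-fold higher at 370.5, 973 and 239.9, and GALNT5, which starts mucin-type sugars, was 2.56-fold higher at 217, 554 and 558. ST6GAL1, an enzyme that adds sialic acid to glycoproteins, was 2.02-fold lower at 2483, 1229 and 2416. In the fatty acid list, the scavenger receptor CD36 was at least 2.31-fold lower at 178, 76.9 or less and 76.9 or less and the phosphatidate phosphatase LPIN2, on chromosome 18, 2.58-fold lower at 1603, 621 and 1088. The last enzyme of haem synthesis, FECH, also on chromosome 18, was 2.06-fold lower at 2306, 1121 and 1903.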
